A study of Mus musculus with 20 samples.

Results

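Transcripts of the interleukin-1 family were followed across sorted cells of mouse dorsal epidermis. The members were the rows of the normalized count table named Il1a, Il1b, Il1rn, Il18, Il33, Il1r1, Il1r2, Il1rap, Il18r1 and Il1rl1, 10 of 53380 genes, and all 10 were among the 17204 genes with enough reads to be tested. Bulk RNA-seq libraries had been made from 5 populations. DETCs (dendritic epidermal T cells, integrin-α6-Sca1lowThy1+, 5 libraries) are γδ T cells that reside in the epidermis, and HFSCs (hair follicle stem cells, α6+Sca1-CD34+, 4 libraries) come from the follicle. Keratinocytes of the interfollicular epidermis were sorted as α6+Sca1+Thy1hi (4 libraries) and α6+Sca1+Thy1- (4 libraries). A further 3 libraries held YFP+ Thy1hi keratinocytes.

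The labels give the genotype Thy1.2CreERT2-Rosa26-EYFP and no treatment for every sample. In the study's methods the YFP+ cells came from Thy1-CreERT2;R26-EYFP mice, in which tamoxifen lets a Cre tied to Thy1 switch on YFP, while wild-type C57BL/6J mice were used for the other sorts. Animals were pooled, and how many entered a library is not clear, so p-values measure the spread between libraries, which may be technical. The ages in the labels run from 8 to 27 weeks, rising by sample, whereas the design text gives 8 weeks. The label of the YFP+ cells gives them as Sca1-, while their title gives Sca1+. Of the DETC libraries, 2 carry numbers that match no label and are named a and b.

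Cytokines of this family are alarm signals of barrier tissues. Interleukin-1α and interleukin-1β both bind the receptor chain Il1r1, interleukin-18 binds Il18r1, and interleukin-33 binds Il1rl1, also called ST2. The bound chain then recruits an accessory chain and signals through MyD88, IRAK kinases and NF-κB. The system has its own brakes: the receptor antagonist Il1rn occupies Il1r1 without signalling, and the decoy receptor Il1r2 binds the cytokine but has no signalling domain. Keratinocytes are known to store interleukin-1α and interleukin-33 and to release them when the skin is injured, and interleukin-18 needs cleavage by caspase-1 before it is active.

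The sequences just upstream of 5 members are shown because they belong to Il33, Il18r1 and Il1rn, the 3 members with the largest called differences between DETCs and Thy1hi cells, and to both interleukin-1 receptor agonists. Each run is the 200 bases before the RefSeq transcription start nearest to the start in the count table's annotation, on the strand of the gene in GRCm38.p6. Capitals mark matches, on either strand, to AP-1 (TGANTCA), NF-κB (GGGNNNNNCC), RUNX (TGTGGT) or the TATA box (TATAAA).
Il1rn, plus strand, chr2:24336660-24336859: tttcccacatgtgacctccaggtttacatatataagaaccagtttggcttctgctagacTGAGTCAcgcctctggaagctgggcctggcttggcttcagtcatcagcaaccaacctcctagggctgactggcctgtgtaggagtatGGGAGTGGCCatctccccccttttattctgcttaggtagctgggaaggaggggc
Il33, plus strand, chr19:29924913-29925112: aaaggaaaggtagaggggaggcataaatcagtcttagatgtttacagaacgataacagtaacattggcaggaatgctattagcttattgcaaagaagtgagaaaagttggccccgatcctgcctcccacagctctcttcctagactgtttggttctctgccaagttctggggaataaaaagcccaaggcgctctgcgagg
Il18r1, plus strand, chr1:40465352-40465551: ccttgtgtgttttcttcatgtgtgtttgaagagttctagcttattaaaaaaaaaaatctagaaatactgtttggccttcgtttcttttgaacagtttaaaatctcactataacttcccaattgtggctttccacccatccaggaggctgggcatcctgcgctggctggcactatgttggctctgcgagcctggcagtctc
Il1a, minus strand, chr2:129309973-129310172: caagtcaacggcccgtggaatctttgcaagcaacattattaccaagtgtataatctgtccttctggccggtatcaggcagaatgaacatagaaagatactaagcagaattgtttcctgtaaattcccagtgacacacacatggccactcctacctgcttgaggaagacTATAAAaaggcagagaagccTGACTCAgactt
Il1b, minus strand, chr2:129371140-129371339: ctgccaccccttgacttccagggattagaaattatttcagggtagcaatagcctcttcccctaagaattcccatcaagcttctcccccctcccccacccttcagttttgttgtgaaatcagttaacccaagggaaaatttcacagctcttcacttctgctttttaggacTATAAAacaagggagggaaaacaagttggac
The Il1rn window held 1 AP-1 match, 141 bases upstream of the start, and 1 NF-κB match, 54 bases upstream. Il1a had a TATA box 32 bases upstream and an AP-1 match 12 bases upstream, and Il1b had a TATA box 31 bases upstream. The windows of Il33 and Il18r1 held none of these letters. Over the same windows of 27025 genes, 5.55% held the AP-1 letters, 41.1% those of NF-κB, 11.3% those of RUNX and 10.6% a TATA box. A match is a description of the letters and not a site in use.

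Several receptor genes lie side by side. Il1r2, Il1r1, Il1rl2, Il1rl1, Il18r1 and Il18rap follow each other over 478 kb of chromosome 1, all on the plus strand, and Il1rl1 ends 136 bases before Il18r1 starts. The neighbours had unlike levels and orders in these libraries, which are given with each gene.

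The depth was 7781256 to 12982393 reads on genes per library, and the values are reads divided by a size factor of 0.729 to 1.43. The 6 T cell markers summed to 19121 to 39844 in DETCs and to at most 374 elsewhere, and the 4 HFSC markers to 3920 to 4711 in HFSCs and to at most 384 elsewhere, so the labels of these sorts held. DETC libraries also carried keratinocyte transcripts (6 markers, summing to 12468 to 67193, against 170648 to 230870 in Thy1hi cells), least of all in DETC a. Langerhans cell markers were read in every population. They summed to 2131, 4589, 3226 and 63.1 in HFSC 1 to 4, to 958 to 2935 in DETCs and to 470 to 1807 in the keratinocytes. HFSC 4 and DETC a stood apart from the other libraries of their sorts. Rn45s took 13.1% of the reads in HFSC 4 (38.3 to 41.5% in HFSC 1 to 3). In DETC a it took 21.6% (29.7 to 36.4% in the other DETCs). Its share was also low in Thy1hi 3 (20.6%) and Thy1- 3 (18.6%). HFSC 4 had the largest size factor (1.43) and DETC a the smallest (0.729). Which kit or batch these libraries had is not given. Of the 5 mast cell markers none had a read in every library of any population, and Cpa3 was at 0 throughout. The 5 markers of neutrophils and macrophages summed to at most 56.7, the 4 endothelial ones to at most 107 and the 4 melanocyte ones to at most 272. The 5 fibroblast markers summed to 119 to 1467 in Thy1hi cells, 18.8 to 139 in YFP+ Thy1hi cells, 62.3 to 146 in Thy1- cells, 41.3 to 529 in HFSCs and 252 to 1023 in DETCs.

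Levels of different genes were compared per kb of exon. In Thy1hi cells Il33 was highest on this scale, at 203 normalized counts per kb, followed by Il1r2 with 171, Il1rn with 123 and Il1r1 with 41.2. Il1a with 24.5, Il1rap with 22.6, Il1b with 12.5, Il18r1 with 9.97 and Il18 with 8.89 came after, and Il1rl1 had 1.05. In DETCs the order of means was Il1r2 (101 per kb), Il18r1 (50.6), Il1rn (42.5) and Il33 (31.3). The agonists Il1b, Il18 and Il1a had 21.2, 19.8 and 19.0. In DETC a, with the least keratinocyte transcripts, Il18r1 came first. It had 347 normalized counts there, beside 54.9 of Il1r2, 57.6 of Il1rn and 20.6 of Il33. HFSCs had Il1r2 first (123 per kb), then Il1rn (56.1), Il33 (41.6) and Il1r1 (29.3). In mean level per kb, the decoy chain Il1r2 thus exceeded the signalling chain Il1r1 in each of the 5 populations. This rests on the exon lengths used, 1908 bases for Il1r2 and 6363 for Il1r1. In normalized counts Il1r2 had the higher mean in Thy1hi cells, HFSCs and DETCs. It had the lower one in YFP+ Thy1hi cells (177 against 267) and in Thy1- cells (220 against 266).

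**Figure D1:**
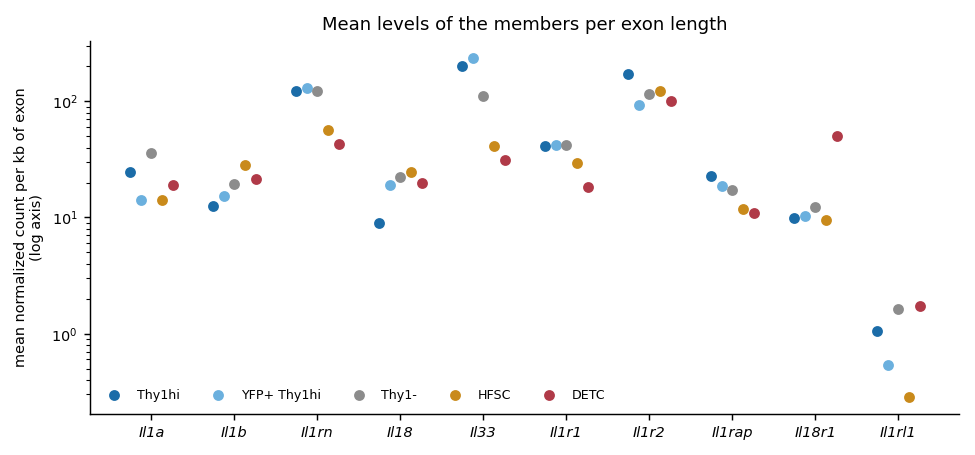
Mean normalized count per kb of exon (log axis) of each member in the 5 populations, 1 point per population. Il33 is highest in the Thy1hi and YFP+ Thy1hi cells (203 and 237 per kb), Il18r1 stands out in DETCs (50.6 per kb) and Il1rl1 is lowest in every population.

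Interleukin-33 had higher means in the interfollicular keratinocytes than in the other sorts. Il33, an alarmin held in the nucleus, had 498, 514, 958 and 369 normalized counts in Thy1hi libraries 1 to 4. The YFP+ Thy1hi libraries had 550.2, 461 and 1042, and the Thy1- libraries 373, 205, 551 and 151. All HFSC libraries (114, 146, 152 and 68.7) and all DETC libraries (103, 101, 91.7, 20.6 and 136 in DETC 1, 2, 3, a and b) lay below every Thy1hi and YFP+ Thy1hi library, and all but HFSC 3 below every Thy1- library. In DETCs the fitted level was 7.04-fold below that of Thy1hi cells (log2 difference -2.82 ± 0.46 SE, limma adjusted p = 6.23e-05, exact permutation p = 0.00794, the smallest that 5 against 4 libraries can give). Against HFSCs, Thy1hi cells had 4.74-fold more (2.25 ± 0.49, limma adjusted p = 0.00377, exact permutation p = 0.0286, the smallest that 4 against 4 can give). Thy1- cells were 1.29 ± 0.49 log2 units above HFSCs without passing the test (limma adjusted p = 0.118, exact permutation p = 0.0571). Fold changes here and below are on the log2(value + 1) scale. In these bulk libraries, fewer cells that transcribe a gene and less of its RNA per cell cannot be told apart.

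In DETCs and HFSCs the libraries with the lowest keratinocyte marker sum were also those lowest in Il33. Not every marker was low in HFSC 4. Its Krt5, Krt14, Krt10 and Col17a1 were the lowest of the HFSCs. Its Trp63 (5166) was the highest of them (3699 to 4174 in HFSC 1 to 3), and its Krt1 (8039) was above that of HFSC 2 (6333). DETC a had 6.22% of the mean keratinocyte marker sum of Thy1hi cells and 3.52% of their mean Il33 value, and the other DETC libraries had 21.9 to 33.5% of the markers and 15.7 to 23.2% of Il33. HFSC 1 to 3 had 60.5 to 73.7% of the markers and 19.6 to 26.0% of Il33, and HFSC 4 had 34.8% and 11.7%. Within the keratinocyte sorts the order was not this one. Thy1- 4 had the most markers of its sort (75.6%) and the least Il33 (25.8%), and Thy1hi 4 had 115% and 63.1% where Thy1hi 3 had 85.2% and 164%. The part of keratinocyte RNA in the DETC values was not tested. Without HFSC 4 and DETC a, Il33 remained 2.35 ± 0.35 log2 units lower in DETCs than in Thy1hi cells (limma adjusted p = 1.95e-05) and 2.001 ± 0.373 higher in Thy1hi cells than in HFSCs (limma adjusted p = 0.000992).

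The interleukin-1 agonists were low and scattered. Il1a, made by keratinocytes and active without cleavage, had 36.4, 59.3, 61.0 and 36.9 normalized counts in Thy1hi cells. It ranged from 22.1 to 109.9 in Thy1- cells, from 15.8 to 48.8 in YFP+ Thy1hi cells, from 2.10 to 54.3 in HFSCs and from 2.74 to 112 in DETCs. The populations overlapped, and none of the 10 pairs of populations was called for Il1a in the fit without a block. Il1b, the agonist typical of myeloid cells, had 26.5, 18.4, 21.1 and 29.1 in Thy1hi cells, all below the Thy1- libraries (29.2, 35.9, 31.6 and 52.5). The exact permutation p of that difference was 0.0286, with a log2 difference of -0.61 ± 0.91 SE, a limma adjusted p of 0.999 and, with the replicate number as a block, 0.215.

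Il1b followed the Langerhans cell markers within the HFSCs. HFSC 1 to 4 had 32.3, 104, 79.1 and 0.70 normalized counts of Il1b, the last a single read, and 424, 958, 554 and 1.40 of Cd207, the Langerhans cell lectin. Over all 20 libraries the genes closest to Il1b were Cd207 (Pearson r = 0.883), Csf1r (0.882) and Clec7a (0.871). As a description only, these points share the depth and makeup of each library. DETC a departed from this order, with 5.49 of Il1b beside 177 of Cd207, while Thy1hi 1 had 26.5 beside 106. With HFSC 4 and DETC a left out, Il1b was lower in Thy1hi cells than in HFSCs (log2 difference -1.42, limma adjusted p = 0.0306), whereas with every library it was not called (-0.11 ± 0.91, limma adjusted p = 0.953). What the Langerhans cells contribute was not tested.

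**Figure D2:**
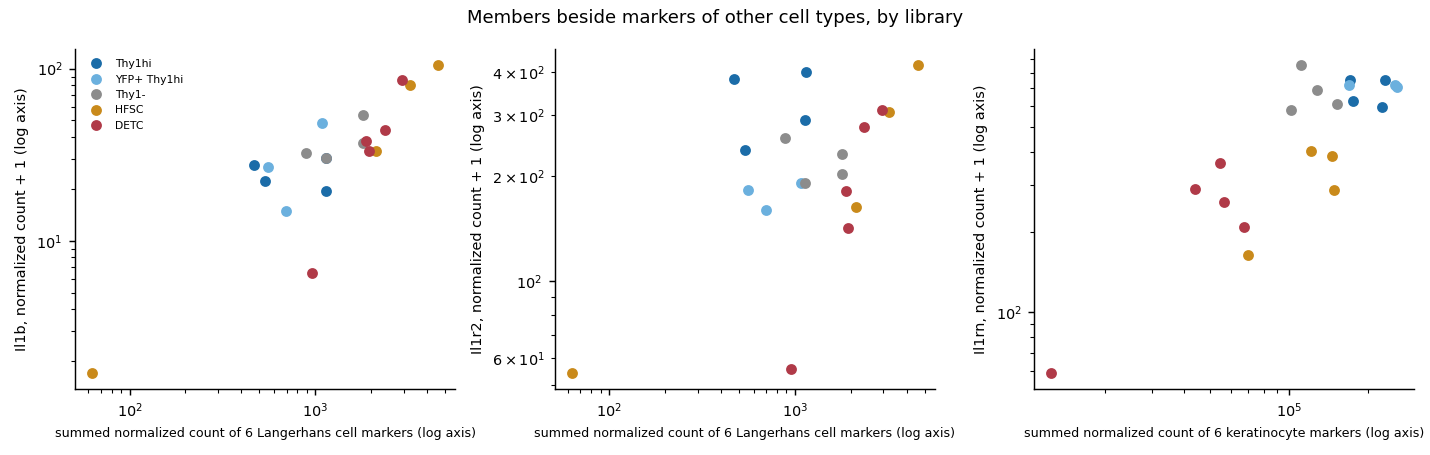
Each point is 1 library, coloured by population. The panels plot Il1b and Il1r2 against the summed normalized counts of 6 Langerhans cell markers and Il1rn against those of 6 keratinocyte markers, all on log axes. HFSC 4 is at the lower left of the first panel, with 0.70 of Il1b and a marker sum of 63.1, and DETC a is at the lower left of the third, with 57.6 of Il1rn and a marker sum of 12468.

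Il18, the cytokine that drives interferon-γ in T cells, was low in every population. It had 3.31, 9.22, 10.6 and 13.6 normalized counts in Thy1hi cells, 4.95 to 41.8 in YFP+ Thy1hi cells, 9.73 to 46.3 in Thy1- cells, 6.31 to 41.3 in HFSCs and 6.86 to 45.6 in DETCs. The libraries overlapped in all pairs of populations and no pair was called. At these levels (3 to 54 reads per library) the SE of a log2 difference was 0.66 to 0.75, so a difference of 2-fold was not detectable.

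The antagonist had like levels in the interfollicular keratinocytes. Il1rn had 594, 623, 752 and 752 normalized counts in Thy1hi cells, 718, 717 and 707 in YFP+ Thy1hi cells and 689.5, 575, 856 and 609 in Thy1- cells. Every HFSC library (287, 404, 387 and 163) and every DETC library (208, 289, 259, 57.6 and 363) was below these. Il1rn was 3.35-fold lower in DETCs than in Thy1hi cells (log2 difference -1.74 ± 0.37 SE, limma adjusted p = 0.000789, exact permutation p = 0.0159). It was 2.31-fold higher in Thy1hi cells than in HFSCs (1.21 ± 0.39, limma adjusted p = 0.0445, exact permutation p = 0.0286). This last call was lost, with adjusted p of 0.0739 to 0.140, when HFSC 1, HFSC 4 or any 1 of Thy1hi 1 to 4 was left out, and with a pseudocount of 0.1, no filter or the row order as deposited (adjusted p up to 0.0760), although the libraries did not overlap. Leaving out HFSC 4 and DETC a together gave 0.93 and a limma adjusted p of 0.00148.

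In the same sorts the libraries with the lowest keratinocyte marker sum had the least Il1rn, where the sum of HFSC 4 was not low in every marker, as given above. DETC a had 8.47% of the Thy1hi mean of Il1rn and the other DETC libraries 30.6 to 53.3%, beside 6.22% and 21.9 to 33.5% for the markers. HFSC 4 had 24.0% of Il1rn and 34.8% of the markers, and HFSC 1 to 3 had 42.3 to 59.4% and 60.5 to 73.7%. The Thy1- libraries did not follow, with 50.7 to 75.6% of the markers and 84.5 to 126% of Il1rn. The part of these transcripts in the result was not tested.

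Per kb of exon, the antagonist outweighed its agonists in most libraries. The ratio of Il1rn to the sum of Il1a and Il1b was 2.84 to 4.003 in Thy1hi cells (mean 3.35 ± 0.48 SD, n = 4) and 2.62 to 7.67 in YFP+ Thy1hi cells. It was 1.39 to 3.07 in Thy1- cells and 0.792 to 2.44 in DETCs. In HFSCs it was 0.888 to 2.22 in 3 libraries and 20.6 in HFSC 4, which rests on 3 reads of Il1a and 1 of Il1b. Each Thy1hi library was above each DETC library (log2 difference of DETC minus Thy1hi -1.31, exact permutation p = 0.0159, 0.0952 after Benjamini-Hochberg adjustment over 6 comparisons). No comparison passed after this adjustment.

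The signalling receptor chain Il1r1 fell in steps from interfollicular keratinocytes to HFSCs to DETCs. It had 262, 249, 275 and 264 normalized counts in Thy1hi cells, 272, 238 and 291 in YFP+ Thy1hi cells and 276, 238, 289 and 259.9 in Thy1- cells, with means of 262 ± 10.6, 267 ± 26.8 and 266 ± 22.0 (SD). The log2 difference between Thy1hi and Thy1- cells was -0.02 ± 0.21 SE. HFSCs had 178, 156, 179.6 and 233, below every interfollicular library, and DETCs had 133, 120.0, 145, 63.1 and 119, below every HFSC library. DETC a had 24.1% of the Thy1hi mean of Il1r1 and the other DETC libraries 45.3 to 55.5%. Their keratinocyte marker sums were 6.22% and 21.9 to 33.5%. HFSC 4, lowest of its sort in that sum, had the most Il1r1 of the HFSCs. The part of keratinocyte RNA was not tested. DETCs were 2.33-fold below Thy1hi cells (log2 difference -1.22 ± 0.20, limma adjusted p = 4.58e-05, exact permutation p = 0.00794). Against HFSCs they were 1.65-fold lower (-0.72 ± 0.20, limma adjusted p = 0.00614, exact permutation p = 0.0159), but this was not called with only both populations in the fit (adjusted p = 0.0535). DETC and HFSC libraries of the same replicate number deviated together in 3 of 3 pairs (r of 0.170 to 0.333), but the 17 other pairs reached 0.371. With the number as a block, which rests on those 3 pairs alone, the difference was -0.37 with a limma adjusted p of 0.0863. Thy1hi cells were 0.50 ± 0.21 log2 units above HFSCs without passing the test (limma adjusted p = 0.115), although the libraries did not overlap (exact permutation p = 0.0286). Leaving out HFSC 4 and DETC a gave 0.61 and a limma adjusted p of 0.00393.

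The decoy Il1r2 varied widely within the HFSC and DETC sorts, and no pair of populations was called for it without a block. With the replicate block it was called higher in Thy1hi than in Thy1- cells and lower in DETCs than in HFSCs, with values given below. Thy1hi cells had 379.8, 289.8, 237 and 399 normalized counts, and the YFP+ Thy1hi libraries, at 159, 190.4 and 182, were all lower. This difference of -0.85 ± 0.54 SE was not called (limma adjusted p = 0.681, exact permutation p = 0.0571, where 3 against 4 can go down to 0.0286). Thy1- cells had 191, 202, 256 and 230.3. HFSCs ranged from 53.2 to 418 and DETCs from 54.9 to 309, with HFSC 4 and DETC a lowest. These are also the libraries with the lowest Langerhans cell marker sum (63.1 and 958) and the lowest keratinocyte marker sum (69803 and 12468) of their sorts. Thy1hi cells had the highest mean of Il1r2 (326), beside Langerhans cell marker sums of 470 to 1145. The part of either cell type was not tested. Over the 20 libraries, Hes1 was closest to Il1r2 (r = 0.879), followed by Bmp2 (0.846) and Pxdc1 (0.837).

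The ratio of decoy to signalling chain, per kb, was 2.87 to 5.04 in Thy1hi cells, 1.95 to 2.66 in YFP+ Thy1hi cells and 2.31 to 2.96 in Thy1- cells. In HFSCs it ran from 0.763 in HFSC 4 to 8.92, and in DETCs from 2.90 to 8.59. No pair of populations passed after adjustment over 6 comparisons (lowest adjusted exact permutation p = 0.257).

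Il1rap, the accessory chain shared by the receptors for interleukin-1, interleukin-33 and interleukin-36, had 294, 233, 219 and 283 normalized counts in Thy1hi cells. YFP+ Thy1hi cells had 182, 198 and 249.7, and Thy1- cells 170.3, 253, 195 and 169. HFSCs had 102, 159.7, 135 and 144 and DETCs 92.0, 178, 145, 67.2 and 132, all below each Thy1hi library. DETC a had 26.1% of the Thy1hi mean of Il1rap and the other DETC libraries 35.8 to 69.2%, while HFSC 4 was not lowest of its sort. The part of keratinocyte RNA in these values was not tested. The chain was 2.19-fold lower in DETCs than in Thy1hi cells (log2 difference -1.13 ± 0.24, limma adjusted p = 0.000748, exact permutation p = 0.0159). It was 1.91-fold higher in Thy1hi cells than in HFSCs (0.93 ± 0.25, limma adjusted p = 0.0159, exact permutation p = 0.0286). Without HFSC 1 or Thy1hi 1 that call was lost (adjusted p = 0.0574 and 0.0567).

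Only the interleukin-18 receptor chain was the reverse of this pattern among the called members in DETCs against Thy1hi cells. Il18r1, which binds interleukin-18, had 304, 258, 202, 347 and 108 normalized counts in DETC 1, 2, 3, a and b. Its other values were 61.8, 61.9, 42.3 and 26.2 in Thy1hi cells, 47.6 to 51.8 in YFP+ Thy1hi cells, 49.9 to 78.7 in Thy1- cells and 41.5 to 49.8 in HFSCs. Every DETC library was above every other library. The rise was 4.90-fold over Thy1hi cells (log2 difference 2.29 ± 0.30, limma adjusted p = 3.71e-06, exact permutation p = 0.0159) and 4.85-fold over HFSCs (2.28 ± 0.30, limma adjusted p = 3.89e-06, exact permutation p = 0.0159). DETC a, with the highest T cell marker sum (39844), had the most Il18r1, and DETC b, with the lowest (19121), the least. Sp100 (r = 0.961), B130021K23Rik (0.951) and Trbj1-6 (0.950) were closest to it over the 20 libraries.

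Il1rl1, the receptor of interleukin-33, was near the limit of detection. It had 15.7, 18.3, 5.53, 16.5 and 3.60 normalized counts in DETCs and 0, 5.43, 1.07 and 1.40 in HFSCs, at most 18 and 5 reads. Thy1hi cells had 4.42, 15.8, 5.69 and 2.91, YFP+ Thy1hi cells 3.10 to 3.99 and Thy1- cells 0.82 to 21.9. DETCs were called above HFSCs (2.22 ± 0.71 log2 units, limma adjusted p = 0.0166, exact permutation p = 0.0317), with overlapping libraries. The call was lost without HFSC 1 (adjusted p = 0.0697) and without HFSC 4 and DETC a (0.0622). Markers of mast cells, which are known for this receptor, summed to at most 7.76 in a library. Which cells gave the Il1rl1 reads was not tested.

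**Figure D3:**
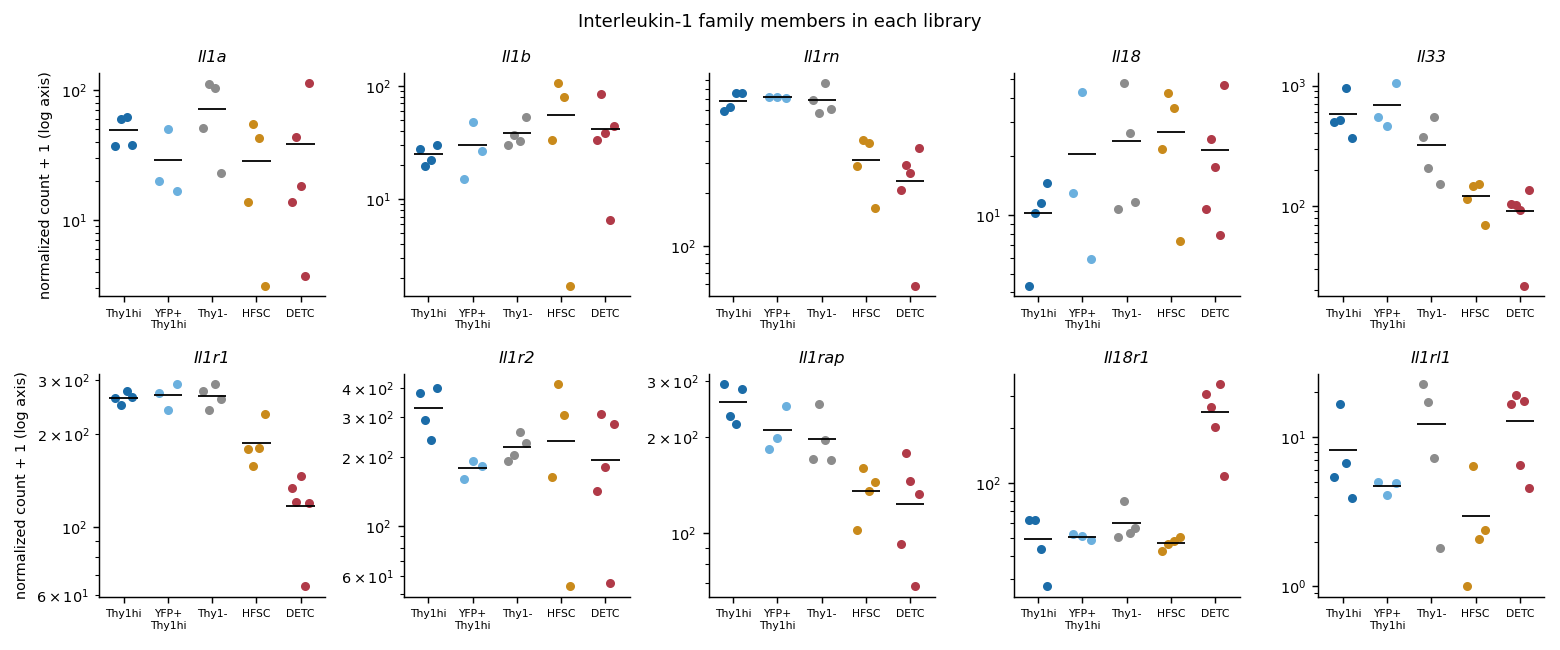
Normalized count + 1 (log axis, a different range in each panel) of the 10 members in each library, with 1 point per library and a bar at the mean of each population. The HFSC and DETC libraries all lie below every Thy1hi library for Il1rn and Il33, and Il18r1 is higher in the 5 DETC libraries than in the other 15.

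Counted together, 5 of the 10 members were called between DETCs and Thy1hi cells. Il18r1 was higher and Il33, Il1rn, Il1r1 and Il1rap were lower in DETCs, that is 1 and 4 of 10, where 19.9% of all genes tested were called higher and 16.6% lower. The median log2 difference of the members was -1.04, against -0.004 for all genes. All 5 calls held without any 1 library and in every alternative fit. The same 5 members were called in DETCs against Thy1- cells and against YFP+ Thy1hi cells, which share the DETC libraries with the first comparison, where 34.1% and 38.1% of all genes were called. Against Thy1- cells the call of Il1rap was lost without DETC a or Thy1- 2, and against YFP+ Thy1hi cells without YFP+ Thy1hi 3 (adjusted p up to 0.0812 and 0.0806).

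Between DETCs and HFSCs 2 members were higher (Il18r1 and Il1rl1) and 1 was lower (Il1r1), where 21.2% and 18.5% of all genes were called in these directions. The median of the members was -0.17 and that of all genes 0.02. Same-numbered pairs of DETC and HFSC libraries lay within the range of the other pairs, so the ground for a block is weak. With the replicate block 2 were higher (Il18r1 and Il1rl1) and 2 lower, beside 23.2% and 19.3% of all genes. The lower ones were then Il1rn (-0.51, limma adjusted p = 0.0122) and Il1r2 (-0.47, limma adjusted p = 0.0445), and Il1r1 was not called. These shares of the members lie near those of all genes.

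Thy1hi cells exceeded HFSCs in 3 members (Il33, Il1rn and Il1rap) and were lower in none, where 6.51% of all genes were called higher and 6.86% lower. The median was 0.87, against 0.02 for all genes. Only Il33 was called without HFSC 1 and without Thy1hi 1. For Thy1- cells against HFSCs no member passed with limma, where 2.56% of all genes were called higher and 3.52% lower, with 5 members at an unadjusted p under 0.05, 0 called by edgeR and 3 by DESeq2. Il1rn was nearest, 1.20 ± 0.39 log2 units higher in Thy1- cells (limma adjusted p = 0.0695), with all 4 libraries above those of HFSCs. Without Thy1- 4, which had the lowest Il33 of its sort, Il33 and Il1rl1 were called.

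**Figure D4:**
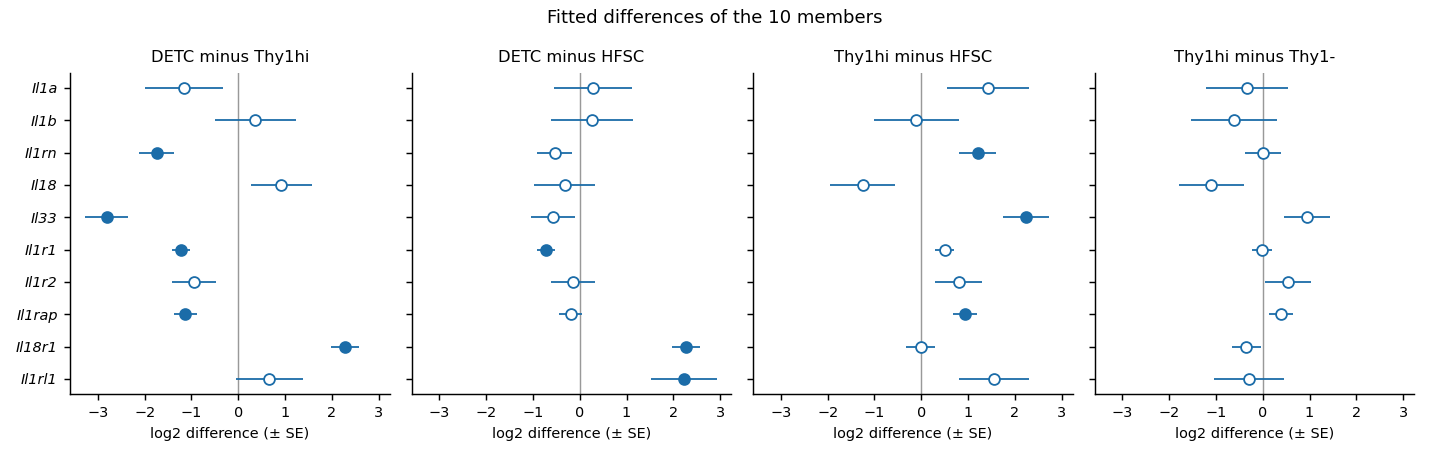
Fitted log2 difference (± SE) of each member in 4 comparisons, from the same fit of 20 libraries, with filled circles for adjusted p under 0.05. In DETCs minus Thy1hi cells 4 filled circles are left of 0 and Il18r1 (2.29) is right of it, 3 are filled in each of the middle panels and none in Thy1hi minus Thy1- cells.

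Between the keratinocyte sorts the members did not pass. For Thy1hi against Thy1- cells 0 of 10 were called by limma, by edgeR or by DESeq2, and 0 had an unadjusted limma p under 0.05, where 0.116% of all genes were called higher and 0.221% lower. Il33 was 1.94-fold higher in Thy1hi cells in the fit (log2 difference 0.95 ± 0.49, limma adjusted p = 0.743) with overlapping libraries. Thy1hi and Thy1- libraries of the same number deviated together, and within the pairs Il33 was higher in Thy1hi cells in 4 of 4 (498 against 373, 514 against 205, 958 against 551 and 369 against 151). With the replicate block Il33 (limma adjusted p = 0.000648) and Il1r2 (0.54, limma adjusted p = 0.0489) were called higher and no member lower, beside 4.52% of all genes higher and 3.96% lower. Il1r2 was higher in Thy1hi cells in 3 of 4 pairs. The 6 keratinocyte markers also summed higher in the Thy1hi libraries (170648 to 230870 against 101674 to 151536). The basal keratins Krt5 and Krt14 and the hemidesmosome collagen Col17a1 were higher in every Thy1hi library, while Krt10, a keratin of differentiating cells, was lower in every one (3777 to 15384 against 15479 to 23997) and its partner Krt1 mostly lower (3282 to 8169 against 7641 to 11846). Their part in the Il33 values was not tested.

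YFP+ Thy1hi cells and Thy1hi cells differed in no member by limma, edgeR or DESeq2, with 0 at an unadjusted limma p under 0.05, where 0.0116% of all genes were called higher and 0% lower. The SE of the members' log2 differences was 0.22 to 0.99. For YFP+ Thy1hi cells against Thy1- cells no member passed with limma, edgeR or DESeq2 either (1 at an unadjusted p under 0.05), where 0.761% of all genes were called in either direction. Against HFSCs, which had 11.6% of all genes called, only Il33 was higher in YFP+ Thy1hi cells (2.47 ± 0.53, limma adjusted p = 0.00381).

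In the order of mean log2 levels, most neighbours did not differ beyond their spread. Of the 40 steps between neighbours, 2 were called. These were the step from DETCs to Thy1- cells for Il18r1 and from HFSCs to DETCs for Il1r1. For Il1rn the interfollicular sorts came first, within 0.08 log2 units of each other, then HFSCs 1.20 lower and DETCs a further 0.54 lower. For Il33 the order was YFP+ Thy1hi, Thy1hi, Thy1-, HFSC and DETC, in steps of 0.23, 0.95, 1.29 and 0.57, each with an SE of 0.46 to 0.53.

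Other genes of the family were taken from a list of 11, of which 7 were tested. Il1rl2, the interleukin-36 receptor chain and a neighbour of Il1r1, had 1155, 1193, 1346 and 955 normalized counts in Thy1hi cells, 977 to 1607 in YFP+ Thy1hi cells and 691 to 1025 in Thy1- cells. HFSCs had 362 to 501 and DETCs 72.7 to 443. DETC a had 6.26% of the Thy1hi mean and the other DETC libraries 25.0 to 38.1%, and the part of keratinocyte RNA was not tested. Il1rl2 was lower in DETCs than in Thy1hi cells (log2 difference -2.16 ± 0.35, limma adjusted p = 4.82e-05) and higher in Thy1hi cells than in HFSCs (1.37 ± 0.37, limma adjusted p = 0.0155). Il1rl2 was also the gene closest to Il33 of all genes tested (r = 0.949), ahead of Mmp28 (0.947) and Wdr61 (0.943). With the replicate block it was higher in Thy1hi than in Thy1- cells (0.47, limma adjusted p = 0.0135).

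Il18rap, the accessory chain of the interleukin-18 receptor, followed Il18r1. It had 184, 128, 111, 172 and 136 normalized counts in DETCs and at most 22.4 in any other library. The rise over Thy1hi cells was 3.98 ± 0.64 log2 units (limma adjusted p = 4.60e-05) and that over HFSCs 5.40 ± 0.64 (limma adjusted p = 1.04e-06), where HFSC values of 1.07 to 5.77 make the fold depend on the pseudocount. Both chains of this receptor were thus highest in DETCs. Sigirr, an inhibitory receptor of the family, was higher in DETCs than in Thy1hi cells (2.54 ± 0.73, limma adjusted p = 0.00867), at 7.21 to 37.2 against 1.32 to 6.79.

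Of the antagonist and the agonists of the interleukin-36 branch, 1 was called without a block, in 1 comparison. Il1f5, now named Il36rn, the antagonist, had 65.1 to 157 in Thy1hi cells, 103 to 303 in YFP+ Thy1hi cells, 124 to 248 in Thy1- cells, 95.3 to 182 in HFSCs and 30.2 to 189 in DETCs. With the block it was lower in Thy1hi than in Thy1- cells (-0.81, limma adjusted p = 0.0193). Il1f9, now named Il36g, had 22.1 to 48.5 in Thy1hi cells and 66.8 to 103 in YFP+ Thy1hi cells, without overlap (1.41 ± 0.60 log2 units, limma adjusted p = 0.506, exact permutation p = 0.0286). It was called lower in DETCs than in YFP+ Thy1hi cells (-1.87 ± 0.58, limma adjusted p = 0.0141) with overlapping libraries, and this call was lost without YFP+ Thy1hi 3 (adjusted p = 0.0562). Il1f8, now named Il36b, was at most 30.2 in any library. Il18bp, which binds and blocks interleukin-18, lay between 10.9 and 60.4.

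**Figure D5:**
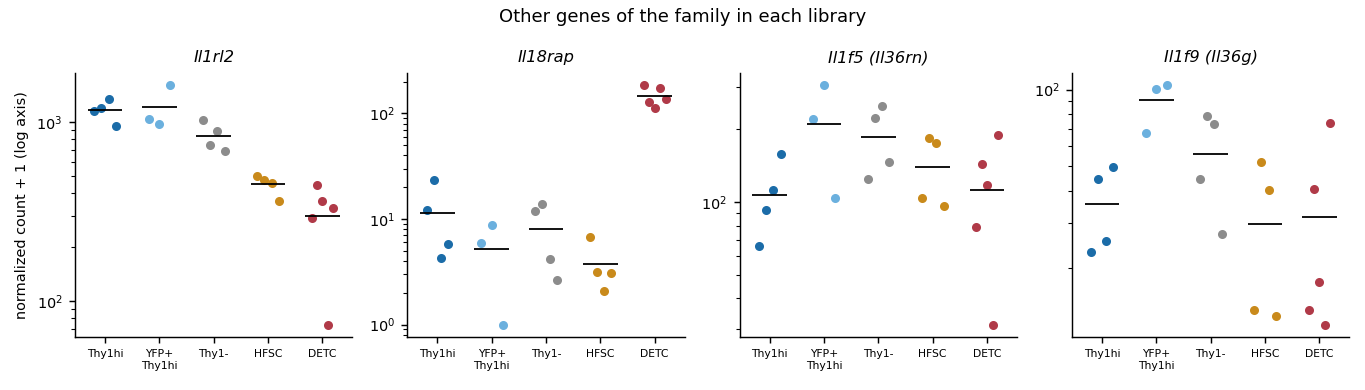
Normalized count + 1 (log axis) of Il1rl2, Il18rap, Il1f5 and Il1f9 in each library, with a bar at the mean of each population. Il18rap is at 111 to 184 in DETCs and at most 22.4 elsewhere, and Il1rl2 is highest in the interfollicular keratinocytes (691 to 1607).

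The processing machinery was followed with a list of 17 genes of inflammasomes, caspases, gasdermins and calpains, 14 of them tested. In DETCs against Thy1hi cells 2 were higher and 3 lower, with a median of -0.14, shares near the 19.9% and 16.6% of all genes. Gsdme, a gasdermin that opens pores in the membrane, rose by 4.55 ± 0.55 log2 units (limma adjusted p = 1.49e-06), and Gsdmd, the gasdermin cut by inflammatory caspases, by 1.82 ± 0.51 (limma adjusted p = 0.00756). Pycard, the inflammasome adaptor, Casp8 and Capn1 were lower (-0.99, -0.69 and -0.66), and each of these 3 calls was lost when 1 library was left out, Thy1hi 4 for Pycard and Capn1 and DETC 3, Thy1hi 1, 2 or 3 for Casp8 (adjusted p up to 0.0573, 0.0799 and 0.120). Casp8 was higher in Thy1hi cells than in HFSCs (1.42 ± 0.26, limma adjusted p = 0.000784) and Nlrp1b lower (-1.54 ± 0.44, limma adjusted p = 0.0221), the latter not without HFSC 4 or Thy1hi 1 (adjusted p up to 0.0865). For Thy1hi against Thy1- cells and YFP+ Thy1hi against Thy1hi cells none passed with limma without a block (1 and 5 at an unadjusted p under 0.05). With the replicate block Capns1, the small calpain subunit, was higher in Thy1hi than in Thy1- cells (0.54, limma adjusted p = 0.0111) and Nlrp1b, an inflammasome sensor, lower (-1.38, limma adjusted p = 0.00637), beside 4.52% and 3.96% of all genes.

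The signalling list held 20 genes, all tested. In DETCs 4 were higher and 2 lower than in Thy1hi cells (median 0.10), near or under the 19.9% and 16.6% of all genes. Against HFSCs 10 were higher and 2 lower (median 0.46), beside 21.2% and 18.5% of all genes. Irak2, a kinase of the receptor complex, had a mean of 1136 normalized counts in DETCs, 73.4 in Thy1hi cells and 68.0 in HFSCs (3.89 ± 0.26 log2 units over Thy1hi cells, limma adjusted p = 4.17e-10). Peli1, a ubiquitin ligase that acts on IRAK proteins, and Tab2, an adaptor of the TAK1 kinase, were also higher in DETCs than in Thy1hi cells (1.92 and 1.41). Irak3, an inhibitory IRAK, and Tollip, an inhibitory adaptor, were lower (-1.41 and -0.83).

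Thy1hi cells had 8 of these 20 genes above HFSCs and none below, with a median of 0.21, where 6.51% of all genes were called higher and 6.86% lower. Among them were the NF-κB subunits Rela (1.75 ± 0.36, limma adjusted p = 0.00266), Rel (1.22) and Relb (1.19), and Irak3 (1.22). Without HFSC 4 and DETC a these differences were 1.30, 0.83, 0.83 and 0.93, all called, and of the 8 genes Myd88 and Nfkb1 were not called (adjusted p = 0.0800 and 0.0541). Thy1hi 4 and Thy1- 4 were lowest of their sorts in Nfkb1 (1466 and 1576, against 3109 to 3751 in replicates 1 to 3 of both sorts). The same held for Rela (861 and 742, against 1085 to 1686). Thy1- cells had 6 above HFSCs and none below, beside 2.56% and 3.52% of all genes, with Rela, Rel, Irak3 and Nfkb2 the largest (1.502, 1.33, 1.29 and 1.19). Each of these 4 calls was lost without at least 1 of the Thy1- libraries 1 to 3 (adjusted p up to 0.0757, 0.0585, 0.0815 and 0.0827). The YFP+ Thy1hi cells (3 libraries) had 0 of the 20 called against HFSCs (median 0.22), where 11.6% of all genes were called in either direction. Their mean of Rela was 713, beside 1354 in Thy1hi cells and 445 in HFSCs.

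NF-κB target genes, a list of 14 that are known to answer interleukin-1, were called higher in Thy1hi cells than in HFSCs in 7 cases and lower in none, with a median of 1.40, beside 6.51% and 6.86% of all genes. Tslp, a keratinocyte cytokine, rose by 3.48 ± 0.92 log2 units (limma adjusted p = 0.0146), Tnfaip3, an inhibitor of NF-κB, by 2.26 (limma adjusted p = 0.00893), Icam1, an adhesion molecule, by 2.10 (limma adjusted p = 0.00675) and Ptgs2, the inducible cyclooxygenase, by 1.89 (limma adjusted p = 0.0154). For Tslp the libraries overlapped, with 160, 128, 133 and 10.7 in Thy1hi 1 to 4 and 0, 23.9, 8.55 and 7.71 in HFSC 1 to 4. The low HFSC values make its fold depend on the pseudocount. HFSC 4 was far below the other HFSC libraries in Tnfaip3 (2583, 2852, 3033 and 220 normalized counts in HFSC 1 to 4) and Icam1 (487, 906, 545 and 73.6). Other targets were low in it too, such as Nfkbiz (406, against 1633 to 2281) and Ptgs2 (90.4, against 228 to 701), though Tslp was not lowest there. The 7 calls and the median of 1.40 include HFSC 4. Without HFSC 4 and DETC a the differences were 1.34 for Tnfaip3, 1.33 for Icam1, 1.32 for Ptgs2 and 3.61 for Tslp, all called (limma adjusted p = 0.000172, 0.00268, 0.0153 and 0.0211). The call of Ptgs2 was lost without HFSC 4 alone or Thy1hi 3, and that of Tslp without HFSC 1, Thy1hi 1 or Thy1hi 3 (adjusted p up to 0.0564 and 0.0584). Against HFSCs, the YFP+ Thy1hi cells had 2 of the 14 targets higher and 0 lower (median 1.12), where 11.6% of all genes were called in either direction. In DETCs against Thy1hi cells 2 rose (Csf2 and Tnfaip3) and 2 fell (Ptgs2 and Nfkbiz), beside 19.9% and 16.6% of all genes. There Tnfaip3 lost its call without DETC 2, a or b or Thy1hi 1, 2 or 4, and Nfkbiz without DETC a or Thy1hi 1, 2 or 3 (adjusted p up to 0.0943 and 0.0953). With the replicate block Ptgs2 was higher in Thy1hi than in Thy1- cells (1.31, limma adjusted p = 3.21e-05), with means of 1154 and 469. These targets answer many signals, and which of them acted was not tested.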

How the data were processed

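RNA-seq of FACS-sorted cells of mouse dorsal epidermis was analysed in 20 libraries of 5 populations, grouped by the sample labels. The authors deposited 1 table of signal values, normalized counts per gene: reads aligned to mm10 with STAR were counted with featureCounts against Ensembl genes and divided by DESeq2 size factors. The labels name an mRNA kit or a SMARTer total RNA kit without saying which library had which, and the design text names 2 batches without saying which sample was in which, so neither could be a term in a fit. Reads were not processed again. Each library's size factor was recovered from the steps between its values, and whole reads divided by it gave 100% of the deposited values back within 0.01 normalized counts.

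The values of Thy1- replicate 4 follow gene names sorted without hyphens, so 3212 genes were put back to their rows, which raised the correlation of its log2 values with the average Thy1- library, itself left out, over the expressed genes among them, from 0.0506 to 0.934. None of the members was among them. For 2 DETC libraries the column number matches no label, and they were used by group only.

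A gene needed 10 normalized counts or more in 3 libraries or more, which left 17204 genes for limma 3.58.1 (lmFit and eBayes with a trend, R 4.3.3) on log2(value + 1), fitted with all 20 libraries in 1 fit, 1 mean per population and no covariate. Tests were two-sided with Benjamini-Hochberg adjustment over the 17204 genes and a threshold of 0.05. Single members also have an exact permutation test, run on their mean log2 values. edgeR 4.0.16 and DESeq2 1.42.0 on the recovered whole reads were alternatives, as were other pseudocounts (0.1 or 10), testing all genes with a read, requiring a mean of 50, rescaling without Rn45s (13.1 to 41.5% of reads), quantile normalization, the row order as deposited, a fit of just the 2 populations compared, the replicate number as a block, and leaving each library out. Chosen after seeing the data were leaving out HFSC 4 and DETC a together and the block for DETCs against HFSCs. edgeR or DESeq2 is named wherever its result is given, and every other adjusted p is from limma. The fitting script was tested on simulated data.

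Pairing was checked by correlating deviations from population means. The same-numbered pairs of Thy1hi and Thy1- libraries had r of 0.293 to 0.716 (4 pairs, the 12 others -0.651 to 0.514). Those of DETCs and HFSCs had 0.170 to 0.333 (3 pairs, the 17 others -0.318 to 0.371). In the other comparisons some pair was at or under 0.1, and there the numbers were not used to pair libraries.

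Gene positions are those of the deposited table, and exon lengths came from GENCODE vM21 (GRCm38), which holds 50604 of the 53380 gene IDs with the same version. The exon length of a gene is the union of all its annotated exons. Promoter windows came from RefSeq (GRCm38.p6), where all 10 members matched. The members and all gene and marker lists (keratinocyte, T cell, Langerhans cell, mast cell, neutrophil and macrophage, fibroblast, endothelial, melanocyte and HFSC) were chosen with earlier results of these data known. All members are given in full, of each other list at most the 4 called genes with the largest change per direction, all tested genes of the family, and the 3 genes most correlated with a member where they are given. Single-cell data, staining, cultures and lineage tracing were not analysed here.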

Additional observations from a re-analysis of the deposited data

Results flagged for a closer look

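Of 48 sets of libraries checked (10 members and 2 ratios in each of the 4 populations with 4 or 5 libraries), 1 held a library far from the others, where chance gives about 1 in 20. It was the ratio of Il1rn to its agonists Il1a and Il1b per kb of exon, which was 20.6 in HFSC 4 against 2.22 in the next HFSC library. HFSC 4 also had the lowest Langerhans cell marker sum of all libraries, 63.1.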

How the results depend on the processing

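The 5 members called between DETCs and Thy1hi cells were called in each of the fits tried. With a block over all populations, where the numbers do not pair these libraries, Il1a was called too (-1.58, limma adjusted p = 0.0236), which made 6. That block also called Il1a higher in Thy1hi and in Thy1- cells than in HFSCs (1.43 and 1.77, adjusted p = 0.0346 and 0.0170). Counts of called members moved elsewhere. For Thy1hi against Thy1- cells the count of 0 became 2 with the replicate block in a fit of both populations. For Thy1hi cells against HFSCs the 3 became 5 with a block over all populations and 5 without HFSC 4 and DETC a, and ran from 1 to 3 with 1 library left out, with 1 without HFSC 1 and 1 without Thy1hi 1. For Thy1- cells against HFSCs the 0 became 1 with quantile normalization, 3 with DESeq2, 4 with the block over all populations, 1 with only 2 populations in the fit and 2 without HFSC 4 and DETC a, and ran from 0 to 2 with 1 library left out, the 2 without Thy1- 4. The causes were not tested. The block changed no other count by over 1.5 times.

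Of 1206 values that the alternatives gave for the 60 log2 differences of members, 64 had the other sign, none of them called before or after. In DETCs minus HFSCs, with the block over all populations Il1a was -0.15 and Il1rap 0.010, and when just these populations entered a blocked fit Il1a was -0.52, Il1b -0.46 and Il1rap 0.041. There Il1b was also -0.092 with a pseudocount of 10, -0.39 with edgeR, -0.41 with DESeq2 and -0.48 without HFSC 4 and DETC a, where Il1rap was 0.037. In Thy1hi minus Thy1- cells Il1rn was -0.070 after rescaling without Rn45s, -0.0515 after quantile normalization and -0.0058 with DESeq2. In Thy1hi minus HFSCs Il1b was 0.13 with a pseudocount of 0.1, and Il18r1 was 0.042 after rescaling, 0.23 after quantile normalization, 0.018 with edgeR, 0.051 with DESeq2 and 0.024 without HFSC 4 and DETC a. In Thy1- minus HFSCs Il1b and Il1r2 were -0.53 and -0.11 with edgeR, -0.53 and -0.090 with DESeq2 and -0.81 and -0.33 without HFSC 4 and DETC a. In YFP+ Thy1hi minus Thy1hi cells Il1b was -0.21, Il1rn -0.014 and Il33 -0.018 with the block over all populations, and Il1r1 -0.027 after quantile normalization.

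With 1 library left out, values whose sign turned ran as follows. In DETCs minus HFSCs Il1a ran from -0.56 to 0.91, Il1b from -1.06 to 0.93 and Il1r2 from -0.74 to 0.24. In Thy1hi minus Thy1- cells Il1rn ran from -0.072 to 0.12, Il1r1 from -0.068 to 0.025 and Il1rl1 from -1.03 to 0.19. In Thy1hi minus HFSCs Il1b ran from -1.42 to 0.56 and Il18r1 from -0.16 to 0.24. In Thy1- minus HFSCs Il1b ran from -0.81 to 1.17, Il18 from -0.68 to 0.16 and Il1r2 from -0.33 to 0.65. In YFP+ Thy1hi minus Thy1hi cells Il1b ran from -0.29 to 0.56, Il18 from -0.080 to 1.34, Il33 from -0.12 to 0.49, Il1r1 from -0.041 to 0.10 and Il18r1 from -0.13 to 0.28.

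Quantile normalization moved the median log2 difference of all genes from -0.004 to -0.20 in DETCs against Thy1hi cells and the split of calls from 3425 higher and 2864 lower to 2921 and 3936. Against HFSCs the split of 3644 and 3189 became 3024 and 3973. Rescaling without Rn45s moved the split of Thy1- cells against HFSCs from 440 and 606 to 835 and 483. Over all genes, the 20 higher and 38 lower in Thy1hi than in Thy1- cells became 100 and 110 with DESeq2, 88 and 117 with the block over all populations, 777 and 681 when both populations alone were fitted with the block, 77 and 77 when they were fitted alone without it, and 116 and 118 without HFSC 4 and DETC a. For Thy1- cells against HFSCs, DESeq2 gave 1093 and 1309, the block over all populations 1382 and 1298, and the fit without HFSC 4 and DETC a 678 and 1077. For Thy1hi cells against HFSCs that block turned 1120 and 1180 into 1923 and 1861. The 2 higher and 0 lower in YFP+ Thy1hi than in Thy1hi cells became 59 and 43 with DESeq2, 58 and 103 with that block, 22 and 15 in a fit of both, 23 and 2 with a pseudocount of 10, 4 and 2 with quantile normalization and 91 and 113 without HFSC 4 and DETC a. With a mean of at least 50, 4 members (Il1a, Il1b, Il18 and Il1rl1) were not tested. Their low counts limit what could be seen of the agonists and of Il1rl1. Counts say nothing of protein, cleavage or release of these cytokines.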
